A study of Mus musculus with 18 samples.

Results

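Circadian clock genes were followed in endothelial cells (ECs), which line blood vessels, of normal mammary fat pad and of breast tumours. The 10 genes, Per1, Per2, Per3, Cry1, Cry2, Arntl, Clock, Nr1d1, Nr1d2 and Dbp, were taken by name from a table of 16248 genes, and all 10 were listed and passed the filter on low values. In ECs of tumours, 8 of the 10 were lower than in ECs of normal fat pad under the control injection, with the largest differences in Nr1d1 and Dbp, where 26.6% of all tested genes were lower in MMTV-PyMT tumours and 23.6% in implanted tumours. The STING agonist cGAMP changed 2 of the 10 in normal ECs, 2 in those of MMTV-PyMT tumours and 7 in those of implanted tumours, where 31.9%, 12.0% and 39.1% of all tested genes changed. The count of 7 was 3 when only the groups compared entered the fit.

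The study asked how ECs of different breast tissues answer the activation of STING, the adaptor protein that responds to cGAMP made by the DNA sensor cGAS, and there were 6 groups of 3 libraries, all from female mice of the FVB strain. Normal ECs were those of the fat pad of wild-type mice. MMTV-PyMT ECs came from spontaneous tumours of mice in which the MMTV promoter drives the polyoma middle T oncogene in mammary epithelium. Implanted ECs came from tumours that formed after tumour cells of MMTV-PyMT mice had been expanded in culture, mixed with Matrigel and put into the fat pad of FVB mice labelled wild type. Each tissue received PBS or cGAMP, a cyclic dinucleotide that binds STING, by direct injection and was collected 3 hours later. The methods name the injected form as 3’3’cGAMP. According to the methods, ECs were enriched with CD31 beads and sorted as live cells without CD45 and with CD31, and mice were anaesthetised before procedures. A legend of the study gives 3 mice a group over 3 independent experiments, but not which library belongs to which experiment. Ages are not in the labels, and the methods give those of MMTV-PyMT mice at the start of treatment and of hosts at implantation, both young adults. The time of day of injection and collection was not given in the sources used here, so tissue and time of sampling cannot be told apart.

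The mammalian clock is a feedback loop of transcription. The proteins of Clock and Arntl (BMAL1) bind E-boxes as a pair and activate the Per and Cry genes, whose proteins then repress that pair. The same pair activates Nr1d1 and Nr1d2, which encode the nuclear receptors REV-ERB alpha and beta, repressors of Arntl, and Dbp, a transcription factor that activates genes with D-boxes, Per genes among them. As a consequence, the messages of Dbp, Nr1d1, Nr1d2 and Per3 are known to peak at a time of day roughly opposite to that of Arntl, Npas2 and Clock in most mouse tissues. ECs of mouse vessels carry this clock, and Per1 is also known as a gene that glucocorticoids and cAMP signalling induce.

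Motifs of the loop were read in the RefSeq promoter windows (300 bases around an annotated start, most of them before it, build GRCm38.p6), which were given for 9 of the 10 genes, in 13 windows. Per2 had no entry. The stretches that hold motifs are shown because their letters match elements through which clock proteins are known to act. They are written 5′ to 3′ on the strand of the gene, with motifs in capitals. Per1 lies at chr11:69098749-69098828 (plus strand, before a start inside the annotated gene), Per3 at chr4:151044806-151044885, Cry1 at chr10:85185075-85185154, Cry2 at chr2:92434190-92434269 and Nr1d1 at chr11:98775378-98775457 (all minus strand), and Arntl at chr7:113207531-113207557 (plus strand, just after a start).
Per1: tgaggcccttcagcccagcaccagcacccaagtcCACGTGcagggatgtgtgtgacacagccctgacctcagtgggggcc
Cry1: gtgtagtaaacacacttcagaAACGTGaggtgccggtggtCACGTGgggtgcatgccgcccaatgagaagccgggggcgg
Cry2: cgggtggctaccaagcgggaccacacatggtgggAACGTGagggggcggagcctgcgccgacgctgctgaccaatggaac
Nr1d1: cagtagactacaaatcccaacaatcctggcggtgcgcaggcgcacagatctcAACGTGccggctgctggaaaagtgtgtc
Per3: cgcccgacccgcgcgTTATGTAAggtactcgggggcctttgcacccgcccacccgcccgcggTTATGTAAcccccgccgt
Arntl: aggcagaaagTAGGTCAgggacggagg

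The E-box CACGTG stood in the windows of Per1 and Cry1, and in 7.15% of all 32851 promoter windows. Its variant CACGTT, read on the other strand as AACGTG, stood in those of Cry1, Cry2 and Nr1d1, against 4.68% of all windows. Per3 held 2 copies of the D-box TTATGTAA, and 1.06% of all windows held this motif or TTACGTAA. The core of the element bound by ROR and REV-ERB receptors, TAGGTCA, stood in a window of Arntl, and 6.45% of all windows held it or TGGGTCA. Both strands were searched, and none of these motifs overlapped another. The cAMP response element TGACGTCA was in none of the 13 windows (1.79% of all windows). AANNGAAA, the core bound by interferon regulatory factors, was in windows of Arntl, Clock and Nr1d2 (23.9% of all windows). The window of Dbp held none of the motifs searched. A match describes these letters only and is no measure of binding.

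The annotation (GENCODE M21, GRCm38) places Per1 at chr11:69095217-69109960 and Dbp at chr7:45705088-45710203, both on the plus strand. Nr1d1 lies at chr11:98767932-98775333 on the minus strand, where its exons share 263 bases (8.55% of their length) with exons of Thra on the opposite strand. Exons of Dbp share 539 bases (18.01%) with Sphk2, and those of Cry2 share 295 bases (4.67%) with D930015M05Rik, also on opposite strands. The library kit was directional, but whether counting used the strand was not stated, so reads in these shared bases cannot be assigned with certainty. Camta1 overlaps Per3, Ube2n-ps1 and Gm43658 overlap Clock and Gm45355 overlaps Arntl, sharing 33 exon bases in the last case and 0 in the others.

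Values are FPKM, fragments per kilobase of a gene after scaling for library size, and differences are log2 changes of FPKM + 1, which understate the change of low genes such as Dbp and Per3. Recovered reads amounted to 9082760 to 12079856 per library, a 1.33-fold range, and the clock genes were measured with 6 (Dbp, implanted cGAMP 2) to 2328 reads (Per1, normal PBS 2). All 5 interferon-response genes set as a check (Cxcl10, Isg15, Ifit1, Rsad2 and Irf7) rose with cGAMP in each tissue, by a median log2 change of 6.58 in normal ECs, 7.16 in MMTV-PyMT and 5.32 in implanted ECs. Endothelial markers were present, 8 of 8, with a summed level of 644 to 1690 FPKM. Under PBS this sum was 871 to 994 in normal, 644 to 795 in MMTV-PyMT and 1000 to 1260 in implanted ECs, without overlap. Its part in the levels of the clock genes was not tested. Markers of other cells were also present and differed between groups, as given with the tissue comparisons.

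In normal ECs under PBS, Per1 had the highest level per gene length, 35.7 ± 1.37 FPKM (SD, n = 3), followed by Nr1d1 with 28.8 ± 0.392 and Nr1d2 with 25.7 ± 1.93. Clock (9.26 ± 0.63), Per2 (7.75 ± 1.2), Cry2 (7.66 ± 0.69) and Dbp (7.24 ± 0.194) came next, and the libraries of Per2 overlapped with those of the other 3. Cry1 (5.92 ± 0.144) lay below them, and Per3 (2.61 ± 0.369) and Arntl (2.28 ± 0.162) were lowest and overlapped. In implanted ECs under PBS, Per1 was again highest with 18 ± 2.56, but Nr1d1 had 7.28 ± 0.887 and Dbp, with 1.33 ± 0.339, had the lowest mean of the 10, with libraries that overlapped with those of Per3 (1.40 ± 0.215). Dbp was the member with the widest range over the 18 libraries, 30.9-fold, and Arntl the one with the narrowest, 2.05-fold.

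**Figure D1:**
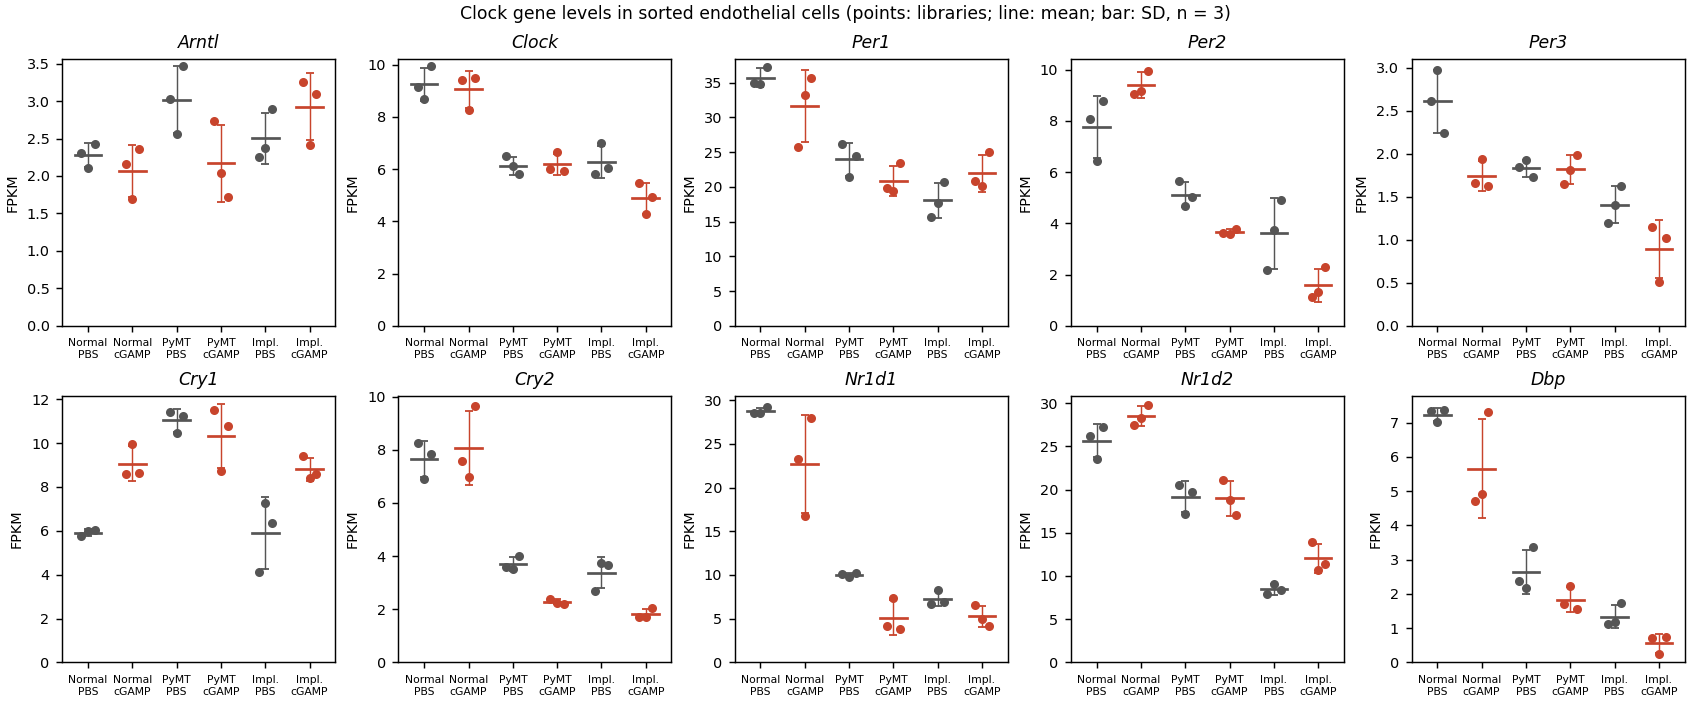
FPKM of the 10 clock genes in each library, with 1 panel a gene and a vertical axis that starts at 0. Points are libraries, lines are group means and bars are SD (n = 3), in grey for PBS and red for cGAMP, with PyMT for MMTV-PyMT and Impl. for implanted tumours. Nr1d1, Nr1d2, Dbp, Cry2, Per2 and Clock were higher in every library of normal ECs than in any tumour library, whereas Arntl overlapped between tissues.

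Tissues were compared first under PBS. In MMTV-PyMT against normal ECs, 8 clock genes were lower, 1 was higher and 1 did not pass (limma with Benjamini-Hochberg adjustment over 13983 genes, adjusted p under 0.05), where 56.5% of all tested genes passed, 26.6% lower and 29.8% higher. In implanted against normal ECs, 8 were lower, 0 higher and 2 did not pass, where 48.7% of all tested genes passed, 23.6% lower and 25.0% higher. Over the 10 genes the median log2 change was -0.52 and -0.96, against 0.02 and 0.01 over all tested genes. Both comparisons share the normal libraries, so they are no independent repeats of each other. Fewer cells of a type and less RNA per cell cannot be told apart in bulk samples.

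Among the nuclear receptors, Nr1d1 read 28.6, 28.5 and 29.2 FPKM for normal, 10.1, 9.81 and 10.2 for MMTV-PyMT and 6.64, 8.29 and 6.91 for implanted ECs. All tumour libraries lay below all normal libraries, and the tumour types did not overlap with each other. The log2 change against normal ECs was -1.43 ± 0.195 (SE) for MMTV-PyMT and -1.85 ± 0.195 for implanted ECs (limma with Benjamini-Hochberg adjustment, adjusted p = 1.54e-05 and 1.22e-06). Nr1d2 read 26.2, 23.5 and 27.3 FPKM for normal, 20.6, 17.2 and 19.7 for MMTV-PyMT and 7.88, 9.08 and 8.38 for implanted ECs. The 3 tissues did not overlap for this paralogue either, and its log2 change was -0.41 ± 0.102 for MMTV-PyMT and -1.50 ± 0.102 for implanted ECs (limma with Benjamini-Hochberg adjustment, adjusted p = 0.00314 and 1.1e-08).

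Dbp, the output factor, read 7.33, 7.01 and 7.37 FPKM for normal, 2.37, 2.16 and 3.37 for MMTV-PyMT and 1.11, 1.17 and 1.72 for implanted ECs. The 3 tissues did not overlap. Its log2 change was -1.20 ± 0.172 for MMTV-PyMT and -1.83 ± 0.172 for implanted ECs (limma with Benjamini-Hochberg adjustment, adjusted p = 2.64e-05 and 3.57e-07).

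The Per genes, repressors of the loop, were lower in both tumour types. Per1 read 35.0, 34.9 and 37.3 FPKM for normal, 26.1, 21.4 and 24.4 for MMTV-PyMT and 15.7, 17.7 and 20.8 for implanted ECs. Per2 read 8.07, 6.42 and 8.76 for normal, 5.65, 4.66 and 5.04 for MMTV-PyMT and 2.18, 3.74 and 4.93 for implanted ECs, so that the tumour types overlapped. Per3 read 2.61, 2.97 and 2.24 for normal, 1.84, 1.92 and 1.73 for MMTV-PyMT and 1.19, 1.40 and 1.62 for implanted ECs. For each of the 3 genes, every tumour library lay below every normal library. Log2 changes of Per1, Per2 and Per3 were -0.56, -0.51 and -0.35 for MMTV-PyMT (limma with Benjamini-Hochberg adjustment, adjusted p = 0.00145, 0.0313 and 0.0287) and -0.96, -0.96 and -0.58 in implanted ECs (adjusted p = 1.4e-05, 0.00058 and 0.00118). The calls of Per2 and Per3 in MMTV-PyMT ECs were lost with a pseudocount of 0.1 (adjusted p = 0.0597 and 0.0756, limma with Benjamini-Hochberg adjustment). That of Per2 was also lost without normal PBS 1, normal PBS 3, MMTV-PyMT PBS 2 or MMTV-PyMT PBS 3 (log2 change -0.50 to -0.43), and that of Per3 without normal PBS 1, normal PBS 2, MMTV-PyMT PBS 1 or MMTV-PyMT PBS 3 (-0.35 to -0.27).

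The paralogous Cry genes, which encode the partners of the Per proteins, went apart. Cry2 read 8.24, 6.90 and 7.84 FPKM for normal, 3.60, 3.52 and 4.01 for MMTV-PyMT and 2.69, 3.75 and 3.68 for implanted ECs, and the tumour types overlapped. Its log2 change was -0.88 ± 0.118 for MMTV-PyMT and -0.99 ± 0.118 for implanted ECs (limma with Benjamini-Hochberg adjustment, adjusted p = 1.32e-05 and 4.39e-06). Cry1 read 5.76, 5.98 and 6.02 for normal, 11.4, 10.4 and 11.2 for MMTV-PyMT and 4.10, 7.27 and 6.36 for implanted ECs. It was the member that was higher in MMTV-PyMT than in normal ECs, with a log2 change of 0.80 ± 0.138 (limma with Benjamini-Hochberg adjustment, adjusted p = 0.000155), and its difference between implanted and normal ECs was -0.03, with a 95% interval from -0.33 to 0.26.

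The activators differed from each other as well. Clock read 9.16, 8.68 and 9.93 FPKM for normal, 6.49, 6.11 and 5.80 for MMTV-PyMT and 5.79, 6.98 and 6.05 for implanted ECs. Its log2 change was -0.52 ± 0.0934 for MMTV-PyMT and -0.50 ± 0.0934 for implanted ECs (limma with Benjamini-Hochberg adjustment, adjusted p = 0.000199 and 0.000369). Arntl read 2.31, 2.11 and 2.43 for normal, 3.03, 2.56 and 3.46 for MMTV-PyMT and 2.25, 2.37 and 2.89 for implanted ECs. All MMTV-PyMT libraries lay above all normal libraries, but the log2 change of 0.29 (95% interval 0.00 to 0.57) missed the threshold (limma with Benjamini-Hochberg adjustment, adjusted p = 0.0781). It passed with voom on recovered reads (0.41, adjusted p = 0.0428), with only the groups compared in the fit (adjusted p = 0.0468) and without MMTV-PyMT PBS 2 (0.37, adjusted p = 0.047). In implanted ECs the change of Arntl was 0.09, with an interval from -0.19 to 0.38.

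Between the tumour types under PBS, 4 clock genes were lower in implanted than in MMTV-PyMT ECs, 0 were higher and 6 did not pass, where 45.5% of all tested genes passed, 24.6% lower and 20.8% higher. Those 4 were Nr1d2 (log2 change -1.09), Cry1 (-0.83), Dbp (-0.63) and Per1 (-0.40), with adjusted p = 9.52e-07, 0.000191, 0.00724 and 0.0183 (limma with Benjamini-Hochberg adjustment). Per1 did not pass without implanted PBS 1, implanted PBS 2, MMTV-PyMT PBS 1 or MMTV-PyMT PBS 3 (-0.39 to -0.31). With scaling by total recovered reads, which moved the median of all tested genes by -0.12, 7 genes were lower, with Nr1d1, Per2 and Per3 in addition. Nr1d1 (-0.42) also passed with only the groups compared in the fit (adjusted p = 0.00723, limma with Benjamini-Hochberg adjustment), and Per2 (-0.57) with voom (adjusted p = 0.037).

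The tissues were also compared in the cGAMP libraries, which are separate from the PBS libraries but share 1 fit with them. Tissue and time of sampling cannot be told apart here either. In MMTV-PyMT against normal ECs 7 clock genes were lower and 0 higher (50.8% of all tested genes passed, 22.1% lower and 28.7% higher). These were Nr1d1 (log2 change -1.97), Cry2 (-1.46), Dbp (-1.22), Per2 (-1.16), Per1 (-0.57), Nr1d2 (-0.57) and Clock (-0.48). In implanted against normal ECs 8 were lower and 1 higher (56.1% of all tested genes passed, 24.8% lower and 31.3% higher). Dbp (-2.09), Per2 (-2.04), Nr1d1 (-1.91), Cry2 (-1.68) and Nr1d2 (-1.19) differed by more than 1 log2 unit, and Clock (-0.78), Per3 (-0.55) and Per1 (-0.50) by less. Arntl was higher, by 0.35 (limma with Benjamini-Hochberg adjustment, adjusted p = 0.0336). With total-read scaling, which moved the median of all tested genes by -0.36 here, the change of Arntl was 0.00 (adjusted p = 0.987) and Cry1 passed as lower (-0.48, adjusted p = 0.00575). The call of Arntl was also lost with only the groups compared in the fit (adjusted p = 0.086) and without normal cGAMP 1, normal cGAMP 2, implanted cGAMP 1 or implanted cGAMP 3 (0.26 to 0.38). In implanted against MMTV-PyMT ECs 5 were lower and 0 higher (50.9% of all tested genes passed, 24.9% lower and 26.0% higher), namely Per2 (-0.88), Dbp (-0.87), Nr1d2 (-0.62), Per3 (-0.59) and Clock (-0.29). With total-read scaling Cry1 (-0.50) and Cry2 (-0.43) were lower there as well. Clock did not pass with only the groups compared in the fit (adjusted p = 0.089), nor without implanted cGAMP 2 (-0.21) or MMTV-PyMT cGAMP 2 (-0.25).

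**Figure D2:**
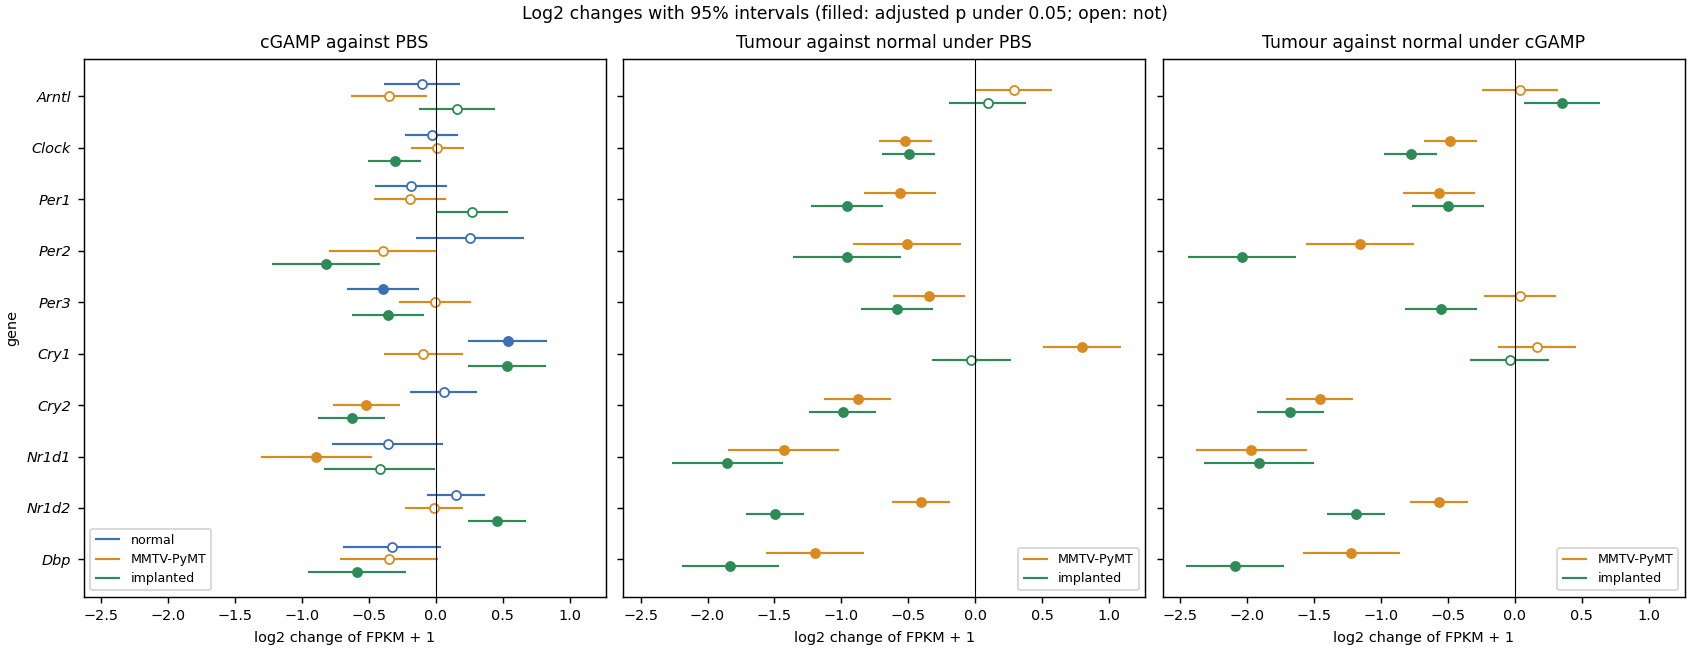
Log2 change of FPKM + 1 (horizontal axis) for each clock gene, for cGAMP against PBS in each tissue (left) and for tumour against normal ECs under PBS (middle) and cGAMP (right). Lines are 95% intervals, and filled points passed at an adjusted p under 0.05. Nr1d1, Dbp and Cry2 lay left of 0 in both tumour types under both treatments, whereas Cry1 was at 0.80 in MMTV-PyMT ECs under PBS and at -0.04 to 0.17 under cGAMP.

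Markers of other cell types moved with the tissue. Summed mural markers (5 of 5 listed) were at 859 to 966 FPKM in normal ECs under PBS, 198 to 276 in MMTV-PyMT and 180 to 220 in implanted ECs. Epithelial markers (5 of 5) were at 293 to 362, 727 to 792 and 296 to 425 FPKM. Between implanted and normal ECs their means went apart, with Epcam (98.7 against 60.1) and Krt8 (108 against 80.8) higher. Krt5 (9.04 against 33.2) and Krt14 (14.7 against 23.1) were lower, and Krt18 was at 130 against 131. Fibroblast markers (5 of 5) were at 68.7 to 79.6, 110 to 174 and 234 to 269. Means of Col1a1 (33.8, 90.5 and 186) and Col1a2 (21.5, 34.2 and 53.9) rose in this order. Dcn fell (11.2, 6.84 and 2.25), Lum was lowest in implanted ECs (6.28, 9.84 and 2.21), and Pdgfra was at 2.33, 3.31 and 2.41. Lymphatic markers (2 of 3, without Pdpn) were at 24.4 to 29, 4.72 to 9 and 8.28 to 13.9 FPKM. Leukocyte markers (5 of 6, without Itgam) were at 22.8 to 56.4, 14.1 to 23.7 and 22.6 to 57. The largest part of this sum was Lyz2, with means of 24.7, 16.5 and 33.3 FPKM, and Csf1r was at 3.22, 2.1 and 3.4. The other leukocyte markers were lower in both tumour types than in normal ECs. Their means were 4.07, 0.287 and 0.808 FPKM for Ptprc, 3.64, 0.106 and 0.856 for Cd3e and 3.38, 0.218 and 0.365 for Cd79a. None of the 4 adipocyte markers was listed. The part of these cells in the levels of the clock genes was not tested.

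cGAMP against PBS was then compared within each tissue. In normal ECs, 1 clock gene rose, 1 fell and 8 did not pass, where 31.9% of all tested genes passed, 13.7% higher and 18.2% lower. Cry1 rose, from 5.76, 5.98 and 6.02 to 8.60, 9.98 and 8.62 FPKM, with no overlap (log2 change 0.54 ± 0.138, limma with Benjamini-Hochberg adjustment, adjusted p = 0.00769). Per3 fell, from 2.61, 2.97 and 2.24 to 1.65, 1.94 and 1.63 (-0.39 ± 0.126, adjusted p = 0.0265, limma with Benjamini-Hochberg adjustment). The Per3 call was lost with a pseudocount of 0.1 (-0.55, adjusted p = 0.0715) and without normal PBS 1, normal PBS 2, normal cGAMP 1 or normal cGAMP 3 (-0.39 to -0.32). Nr1d1 read 23.3, 16.8 and 28.0 FPKM and Dbp 4.72, 4.93 and 7.32 under cGAMP, each with 1 library close to the PBS values (log2 change -0.36 and -0.33, adjusted p = 0.177 and 0.16). Dbp passed without normal cGAMP 3 (-0.50, adjusted p = 0.0448). Per2 read 9.03, 9.17 and 9.96 and Nr1d2 27.4, 28.3 and 29.8, all above the PBS libraries, with log2 changes of 0.26 and 0.15 that did not pass.

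In MMTV-PyMT ECs, 2 clock genes fell, 0 rose and 8 did not pass, where 12.0% of all tested genes passed, 4.57% lower and 7.42% higher. Nr1d1 fell from 10.1, 9.81 and 10.2 to 4.14, 7.37 and 3.86 FPKM (log2 change -0.89 ± 0.195, limma with Benjamini-Hochberg adjustment, adjusted p = 0.0066). Cry2 fell from 3.60, 3.52 and 4.01 to 2.39, 2.25 and 2.20 FPKM (-0.52 ± 0.118, adjusted p = 0.00842). Neither gene overlapped between treatments, and both calls held in all 24 alternatives. Markers of other cells moved with the treatment here: summed epithelial markers were at 727, 792 and 762 FPKM under PBS and at 700, 499 and 633 under cGAMP, without overlap, and endothelial markers at 795, 690 and 644 and at 730, 1000 and 908, with overlap. Their part in these changes was not tested. Per2 read 3.61, 3.57 and 3.79 under cGAMP, below all PBS libraries, with a log2 change of -0.39 that did not pass (adjusted p = 0.203), except with only the groups compared in the fit (adjusted p = 0.0412). Arntl, with 2.73, 2.05 and 1.72 FPKM and a change of -0.35 (adjusted p = 0.103), passed with total-read scaling (-0.45, adjusted p = 0.0283) and without MMTV-PyMT cGAMP 1 (-0.48, adjusted p = 0.0317). Per1 (19.9, 19.4 and 23.4), Cry1 (11.5, 8.71 and 10.8), Nr1d2 (21.1, 18.7 and 17.1), Clock (6.01, 6.65 and 5.91), Per3 (1.65, 1.81 and 1.99) and Dbp (1.70, 2.24 and 1.56) overlapped with their PBS libraries.

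In implanted ECs, 5 clock genes fell, 2 rose and 3 did not pass, where 39.1% of all tested genes passed, 18.8% lower and 20.3% higher. Per2 fell from 2.18, 3.74 and 4.93 to 1.12, 1.30 and 2.31 FPKM (log2 change -0.82 ± 0.190, limma with Benjamini-Hochberg adjustment, adjusted p = 0.0028), with an overlap of 1 library. Cry2 fell from 2.69, 3.75 and 3.68 to 1.72, 1.69 and 2.03 FPKM (-0.63 ± 0.118, adjusted p = 0.000514). Dbp fell from 1.11, 1.17 and 1.72 to 0.719, 0.238 and 0.726 FPKM, the latter values resting on 18, 6 and 22 reads (-0.59 ± 0.172, adjusted p = 0.013). Per3 fell to 1.15, 0.507 and 1.02 FPKM (-0.36, adjusted p = 0.0335) and Clock to 5.45, 4.26 and 4.93 (-0.31, adjusted p = 0.0158). Implanted cGAMP 2 was the lowest library for Dbp, Per3 and Clock, and it also had the highest leukocyte and fibroblast markers of its group (188 and 602 FPKM, against 37.3 to 45.6 and 253 to 489 in the other two libraries). Without it, Dbp (-0.43, adjusted p = 0.0633), Per3 (-0.20, adjusted p = 0.166) and Clock (-0.23, adjusted p = 0.0704) did not pass. Dbp was also lost without implanted PBS 3 (-0.47), Clock without implanted PBS 2 (-0.24) and Per3 without implanted PBS 2 (-0.36) or implanted PBS 3 (-0.29). With only the groups compared in the fit, the calls of Per2 (adjusted p = 0.0551), Clock (0.109), Per3 (0.15) and Cry1 (0.0675), which rose as given next, were lost (limma with Benjamini-Hochberg adjustment). Summed fibroblast markers here were at 269, 234 and 236 FPKM under PBS and at 489, 602 and 253 under cGAMP, with overlap. Leukocyte markers were at 36.5, 22.6 and 57 and at 45.6, 188 and 37.3. These and the other marker sums overlapped between treatments. Their part in the changes of the clock genes was not tested.

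The genes that rose in implanted ECs were Cry1 and Nr1d2. Cry1 went from 4.10, 7.27 and 6.36 to 9.42, 8.40 and 8.58 FPKM (log2 change 0.53 ± 0.138, limma with Benjamini-Hochberg adjustment, adjusted p = 0.00633) and Nr1d2 from 7.88, 9.08 and 8.38 to 13.9, 10.7 and 11.4 (0.46 ± 0.102, adjusted p = 0.00216). With total-read scaling, which moved the median of all tested genes by -0.23 in this comparison, both changes were smaller and did not pass (0.25 and 0.16, adjusted p = 0.133 and 0.15), and Nr1d1 passed as lower (-0.68, adjusted p = 0.00639). With the deposited scaling Nr1d1, at 6.61, 4.98 and 4.17 FPKM, had a change of -0.42 (adjusted p = 0.102), and it passed without implanted cGAMP 1 (-0.57, adjusted p = 0.0469) or MMTV-PyMT cGAMP 2 (-0.42, adjusted p = 0.0436). Per1 read 20.8, 20.1 and 25 (0.27, adjusted p = 0.1) and passed without implanted PBS 3 (0.37, adjusted p = 0.0439). Arntl read 3.26, 2.42 and 3.10 (0.16, adjusted p = 0.361).

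The effect of cGAMP was compared directly between tissues. Between implanted and normal ECs it differed for 2 clock genes, Per2 (-1.08 ± 0.269) and Cry2 (-0.69 ± 0.166), where 18.6% of all tested genes passed, 6.09% lower and 12.5% higher (limma with Benjamini-Hochberg adjustment, adjusted p = 0.0104 and 0.00876). Between MMTV-PyMT and normal ECs it differed for Cry2 alone (-0.58 ± 0.166, adjusted p = 0.0427), where 8.37% of all tested genes passed, 2.90% lower and 5.48% higher. Between implanted and MMTV-PyMT ECs it differed for Nr1d2 alone (0.47 ± 0.144, adjusted p = 0.0465, limma with Benjamini-Hochberg adjustment), where 11.1% of all tested genes passed, 7.34% higher and 3.72% lower. Cry1, which rose in normal ECs, had an effect lower by 0.63 in MMTV-PyMT than in normal ECs that missed the threshold (adjusted p = 0.0573). It passed with total-read scaling (-0.76, adjusted p = 0.0207), with voom (-0.72, adjusted p = 0.0338), with only the groups compared in the fit (adjusted p = 0.0146) and without implanted PBS 1, implanted PBS 2 or MMTV-PyMT cGAMP 1 (-0.71 to -0.63). The Cry2 difference between MMTV-PyMT and normal ECs was lost in 10 of the 18 fits that leave out a library (-0.63 to -0.46) and the Nr1d2 difference in 14 of them (0.37 to 0.52). Without the filter neither passed (adjusted p = 0.0515 and 0.0507). The Nr1d2 difference was also lost with total-read scaling (0.31, adjusted p = 0.147), where Clock passed in its place (-0.46, adjusted p = 0.0232). Clock passed with that scaling between implanted and normal ECs as well (-0.53, adjusted p = 0.00586), and Per2 between MMTV-PyMT and normal ECs with only the groups compared in the fit (-0.65, adjusted p = 0.0176).

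Shares of the variation over the 18 libraries set tissue beside treatment, as a description. For all 10 genes the tissue took a larger share than the treatment, which was also so for 80.7% of all tested genes. The tissue share was 91.2% for Nr1d2, 88.9% for Dbp, 83.8% for Nr1d1, 83.6% for Cry2 and 83.0% for Clock, against a median of 53.6% over all tested genes. It was 76.3% for Per1, 76.2% for Per2 and 60.1% for Per3. The treatment share was 21.1% for Cry1 and 16.8% for Per3, the highest of the 10, and 0.2% for Per1, the lowest, with a median of 8.9% over all tested genes. Arntl was the member with the largest residual share, 44.6%, which is the spread between replicates, and its tissue share was 22.2%. The interaction of tissue and treatment took 27.3% for Arntl and 17.5% for Cry1, the highest of the 10. Its median over all tested genes was 6.7%. Tissue has more levels than treatment, so their shares are not on equal terms.

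**Figure D3:**
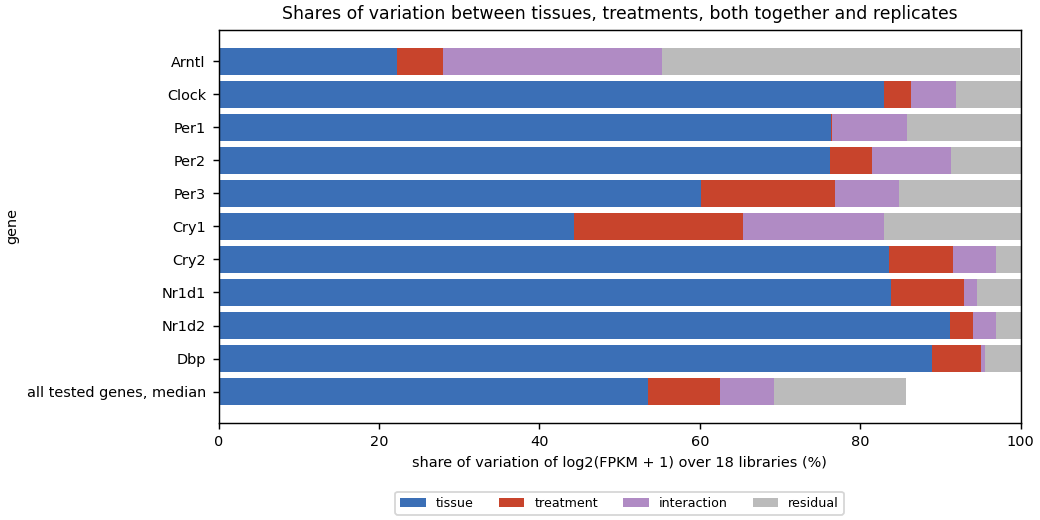
Share of the variation of log2(FPKM + 1) over 18 libraries (horizontal axis, percent) that lies between tissues, between treatments, in their interaction and between replicates (residual), for each clock gene. The bottom bar holds the medians over all 13983 tested genes, which do not add up to 100. Tissue made up most of the variation of 8 genes, whereas Cry1 had 44.3% and Arntl 22.2%.

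The arms of the clock that are known to peak at opposite times were set against each other in each library, as the mean log2(FPKM + 1) of Dbp, Per3, Nr1d1 and Nr1d2 minus that of Arntl, Npas2 and Clock. This difference was 1.41 ± 0.047 (SD, n = 3) in normal ECs under PBS, 0.86 ± 0.049 for MMTV-PyMT and 0.34 ± 0.077 for implanted ECs. The libraries of the 3 tissues did not overlap. Under cGAMP it was 1.35 ± 0.055, 0.68 ± 0.166 and 0.22 ± 0.182, in the same order, and in each tissue the cGAMP libraries overlapped with the PBS libraries. Dbp minus Arntl was 1.29 to 1.37 in normal PBS libraries, -0.26 to -0.03 in MMTV-PyMT and -0.64 to -0.52 in implanted PBS libraries. Under cGAMP it was 0.86 to 1.31, -0.47 to 0.09 and -1.46 to -1.25, so that in implanted ECs the treatments did not overlap. The fall of this difference between tissues under PBS came with lower Dbp, Nr1d1, Nr1d2 and Per3. Npas2 and Clock, of the opposite arm, were also lower in tumour ECs.

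**Figure D4:**
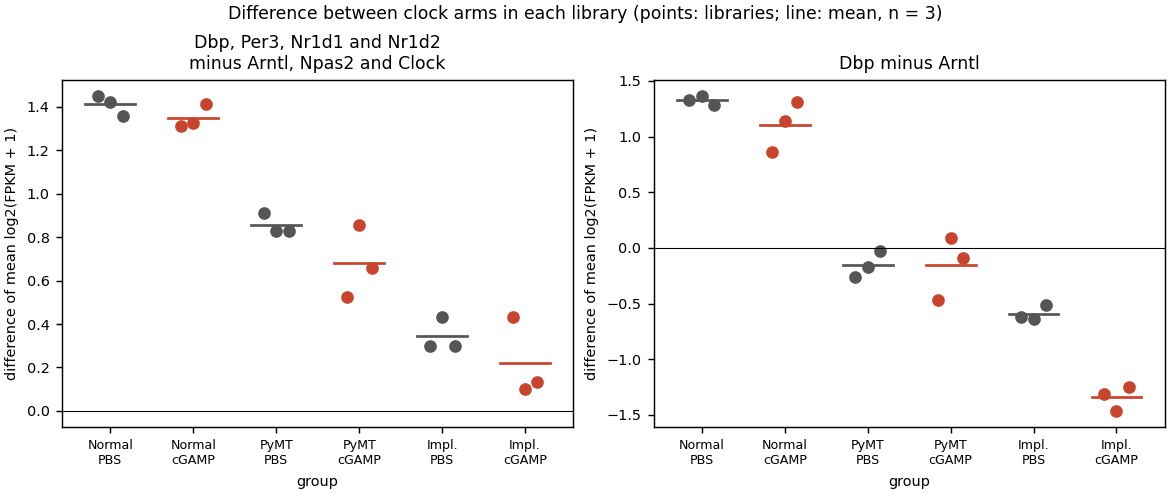
Difference between the clock arms in each library (left) and Dbp minus Arntl (right), both on the scale of log2(FPKM + 1), by group (horizontal axis). Points are libraries and lines are group means (n = 3), in grey for PBS and red for cGAMP. Tissues under PBS lay apart in both panels, and the treatments lay apart in the right panel for implanted ECs.

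Over the 18 libraries, which share groups and treatments, 8 members varied together. Pearson's r of log2(FPKM + 1) ran from 0.60, between Per1 and Per3, to 0.95, between Cry2 and Nr1d1. It was 0.93 between Dbp and Clock and 0.83 between Dbp and Nr1d2. Cry1 had r between -0.33 and 0.30 with the other genes and Arntl between -0.43 and 0.20. The 5 tested genes with a pattern most like that of Dbp were Klf9 (r = 0.978), Galnt15 (0.966), Chp2 (0.964), Zhx3 (0.964) and Tmem245 (0.963). All 5 lay above 0.93, the highest r of Dbp with another member. For Arntl they were Plpp6 (0.785), Trappc2l (0.759), Sertad2 (0.721), Fam160b1 (0.718) and Mrpl27 (0.712).

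Of 18 other clock genes listed, Rorb was not listed in the table, Arntl2 was below the filter and 16 were tested. Under PBS, 5 were higher and 5 lower in MMTV-PyMT than in normal ECs, and 2 were higher and 5 lower in implanted ECs. Of all tested genes, 29.8% were higher and 26.6% lower in the former and 25.0% and 23.6% in the latter comparison. Tef, a relative of Dbp that binds the same D-boxes, was lower in both (log2 change -0.59 and -1.45), as was Usp2, a deubiquitinase under clock control (-0.40 and -1.07). Hlf, the third factor of this family, was higher in MMTV-PyMT than in normal ECs (1.18), and so was Bhlhe40 (0.87), a repressor that binds E-boxes. With cGAMP, 3 rose and 1 fell in normal, 1 rose and 4 fell in MMTV-PyMT and 5 rose and 3 fell in implanted ECs, where 31.9%, 12.0% and 39.1% of all tested genes changed. Timeless, which encodes a replication fork protein related to an insect clock gene, rose in all 3 tissues (0.97, 0.98 and 2.42), and Tef fell in all 3 (-0.29, -0.32 and -0.59, limma with Benjamini-Hochberg adjustment). Hlf fell in implanted ECs (-1.06), and Bhlhe40 fell in MMTV-PyMT (-0.51) and rose in implanted ECs (0.64). With total-read scaling the counts were 2 higher and 6 lower for implanted and 1 higher and 6 lower for MMTV-PyMT ECs, and none of those passed before changed sign.

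Pathways known to induce Per1 were described in the same way. Of 12 glucocorticoid-responsive genes, 8 were lower and 1 higher in MMTV-PyMT than in normal ECs under PBS, and 8 lower and 1 higher in implanted ECs, where 56.5% and 48.7% of all tested genes passed in either direction. Of all tested genes, 26.6% were lower and 29.8% higher in the former comparison and 23.6% and 25.0% in the latter. Log2 changes of the 12 genes ran from -3.19 to 0.76 in the former and from -2.80 to 0.70 in the latter. Lower genes include Pdk4, a kinase that restrains pyruvate oxidation (log2 change -3.19 and -2.80), and Klf9, a transcription factor (-1.46 and -2.17). Tsc22d3, which encodes the leucine zipper protein GILZ, was lower as well (-1.41 and -1.86). With cGAMP, 4 rose and 2 fell in normal, 4 rose and 0 fell in MMTV-PyMT and 5 rose and 3 fell in implanted ECs, against 31.9%, 12.0% and 39.1% of all tested genes that changed. The balance in implanted ECs turned with total-read scaling, where 3 rose and 4 fell. The metallothioneins Mt1 (2.10, 0.77 and 0.99) and Mt2 (3.47, 1.74 and 2.42) and the cell cycle inhibitor Cdkn1a (1.10, 1.39 and 2.28) rose in all 3 tissues, whereas Tsc22d3 fell in normal (-0.91) and implanted ECs (-0.62). Klf9 is also the gene with the pattern most like that of Dbp.

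Of 8 cAMP and immediate-early genes, 3 were lower and 1 higher in MMTV-PyMT than in normal ECs under PBS, and 7 lower and 0 higher in implanted ECs, where 56.5% and 48.7% of all tested genes passed in either direction. By direction, 26.6% of all tested genes were lower and 29.8% higher in the former comparison and 23.6% and 25.0% in the latter. In implanted against normal ECs, log2 changes were -1.49 for Fos, -1.41 for Egr1, -1.35 for Atf3, -1.05 for Fosb and -1 for Nr4a1, all of them transcription factors induced within minutes by many stimuli. With cGAMP, 1 rose and 2 fell in normal, 2 rose and 2 fell in MMTV-PyMT and 3 rose and 1 fell in implanted ECs, against the same 31.9%, 12.0% and 39.1%. The balance in implanted ECs turned with total-read scaling, to 2 higher and 4 lower, and MMTV-PyMT ECs then also had 2 higher and 4 lower. Crem, whose short form represses cAMP-driven genes, rose in all 3 tissues (0.73, 0.70 and 1.12), and Nr4a1 fell in all 3 (-0.69, -1.25 and -0.39). Atf3 rose in MMTV-PyMT (0.94) and implanted ECs (1.57). Under cGAMP its difference between implanted and normal ECs was -0.16 and did not pass. Immediate-early genes are known to respond to tissue dissociation, and time from collection to lysis was not given in the sources used here.

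The genes on the opposite strand were compared with their clock neighbours. Thra, a thyroid hormone receptor gene, was lower in tumours as Nr1d1 was, with 17.9 ± 0.681 FPKM (SD, n = 3) for normal, 10.4 ± 0.331 for MMTV-PyMT and 7.21 ± 1.14 for implanted ECs under PBS (log2 change -0.73 and -1.21). Sphk2, a sphingosine kinase gene, was at 5.82 ± 0.125, 6.69 ± 0.557 and 7.51 ± 0.258 FPKM in the same order, while Dbp went from 7.24 to 2.63 and 1.33. Its log2 change was 0.17 in MMTV-PyMT, which did not pass, and 0.32 for implanted ECs (limma with Benjamini-Hochberg adjustment, adjusted p = 0.0179). D930015M05Rik was at 1.88 ± 1.22 FPKM for normal, 0.373 ± 0.242 for MMTV-PyMT and 0.485 ± 0.25 for implanted ECs, and it passed the filter on low values through normal libraries only, so no comparison is drawn. Camta1, which shares no exon bases with Per3, was below the filter.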

How the data were processed

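The authors deposited 1 table of FPKM values for 16248 genes and 18 libraries. According to the methods and labels, reads were aligned to mm10 with STAR 2.7 and counted with HTSeq. How FPKM were made was not given in the sources used here. Columns with no matched sample numbered 0. The columns of 6 libraries name only the treatment and were taken as normal fat pad, as no other tissue was left. Values at 0 numbered 0. Whole reads were recovered from the steps of the FPKM values for 16242 genes (99.96%, within 0.05 reads), for 15772 of them with the GENCODE M21 exon length and for the others with a step found from the gene's own values. The values were not scaled by read totals, and were tested as deposited.

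Genes that reached 1 FPKM in 3 or more libraries (13983, with 2265 below) were tested as log2(FPKM + 1) in limma 3.58.1 (R 4.3.3), with 1 mean for each of 6 groups over all 18 libraries, eBayes with a trend, 2-sided, and Benjamini-Hochberg adjustment over all tested genes. A gene passed at an adjusted p under 0.05. The 12 comparisons were cGAMP against PBS in each tissue, each pair of tissues under each treatment, and the difference of the cGAMP effect between each pair of tissues. The script was tested on simulated data. Alternatives were a pseudocount of 0.1, no filter, scaling by total recovered reads, a fit of the compared groups alone, a replicate block, voom on recovered reads, and leaving out each library.

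The clock genes, the other lists and the markers were chosen with earlier results of these data known. All 10 clock genes are named. Of the other lists at most 6 are named, those that passed with the largest absolute change, besides the genes that overlap a clock gene and the 5 most like Dbp and Arntl. One gene that this rule names is not reported here. The 18 pairs of replicates all differed by more than sampling noise (chi-square per gene 4.07 to 31.2, genes with at least 10 reads). Reads carry no molecular identifiers, so read counts give counting error only.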

Additional observations from a re-analysis of the deposited data

Results flagged for a closer look

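The effect of cGAMP differed between tissues, by a test of the difference itself, for 4 results among the clock genes (limma with Benjamini-Hochberg adjustment). The effect on Per2 was lower by 1.08 log2 units in implanted than in normal ECs (-1.08, 95% interval -1.65 to -0.51). The effect on Cry2 was lower in implanted (-0.69, interval -1.04 to -0.33) and in MMTV-PyMT than in normal ECs (-0.58, interval -0.93 to -0.23). The effect on Nr1d2 was higher in implanted than in MMTV-PyMT ECs (0.47, interval 0.16 to 0.78). The 2 differences between implanted and normal ECs passed in all 24 alternatives, and those of Cry2 between MMTV-PyMT and normal ECs and of Nr1d2 did not. Groups of 3 are too small for a check of single outlying libraries.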

How the results depend on the processing

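Of 57 log2 changes that passed, 43 passed in all 24 alternatives, 14 were lost in at least 1 and 0 reversed. Counts of clock genes that passed moved by over 1.5 times as follows. In normal ECs under cGAMP the count of 2 became 1 with a pseudocount of 0.1 and 1 to 2 when each library was left out in turn. In implanted ECs under cGAMP the count of 7 became 3 when only the groups compared entered the fit, and 4 to 8 with a library left out. In implanted against MMTV-PyMT ECs under PBS the count of 4 became 7 with total-read scaling and 3 to 5 with a library left out. For the effect of cGAMP in MMTV-PyMT minus normal ECs the count of 1 became 0 without the filter, 2 with total-read scaling, 3 with only the groups compared, 2 with voom and 0 to 2 with a library left out. For implanted minus MMTV-PyMT ECs it went from 1 to 0 without the filter, with only the groups compared and with the replicate block, to 2 with voom and to 0 to 3 with a library left out. With total-read scaling that count stayed at 1, with Nr1d2 lost and Clock gained. The cause of these moves was not tested.

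Whether libraries with the same replicate number belong to the same experiment was not given in the sources used here. Deviations of same-numbered libraries correlated from -0.345 to 0.263, and in no comparison were all 3 pairs over 0.1. With groups of 3, these correlations do not decide it. With the replicate block the count in implanted ECs under cGAMP stayed at 7, with Per1 gained (0.27, adjusted p = 0.047, limma with Benjamini-Hochberg adjustment) and Per3 lost (-0.36, adjusted p = 0.0504). Depth limits Dbp most, with 6 to 259 reads a library.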
